A study of Homo sapiens with 9 samples.

Results

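The 40 genes described here are effector genes of the interferon response, the genes through which a cell that has sensed interferon blocks viruses. They were chosen by gene symbol from a list of 40, all 40 were among the 16630 genes of the expression table, and 39 were among the 13273 genes tested. RNA came from H1650, an established human line of non-small cell lung cancer, grown in culture and collected on day 3 after transfection at 20 nM. There were 3 groups of 3 libraries, which the labels call biological replicates. Cells of the control group received a non-targeting siRNA pool (ON-TARGETplus). The siMENA group received a pool (siGENOME SMARTpool) against ENAH, the gene of hMENA, an actin regulator of the Ena/VASP family, and cells of the siMENA11a group received 3 mixed siRNAs directed at exon 11a of that gene, the exon of the epithelial isoform. All cells of all groups were exposed to the same lipid reagent (RNAiMAX), and no library of untransfected cells was analysed here. Each target was hit with 1 siRNA preparation, and the ENAH pool and the control pool come from different product lines, so lower ENAH and exposure to a given preparation cannot be told apart as sources of a difference. The values are for bulk RNA, in which fewer cells that express a gene and less RNA per cell cannot be told apart.

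Type I and type III interferons bind receptors on the cell surface, whose kinases JAK1 and TYK2 activate transcription factors of the STAT family. STAT2 is one of these and joins IRF9 in a complex that enters the nucleus, binds a short promoter element rich in GAAA and switches on the genes described here. Their products bind or degrade foreign RNA, attach the ubiquitin-like protein ISG15 to other proteins, or block viruses at membranes. Epithelial cells of the lung make and answer such interferons, and tumour cells can hold the response switched on without a virus.

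Promoters of some members are shown first, since the element through which these genes are known to be induced can be read in them. All those shown hold a match to the core searched below. OAS1 and IFI35, which rose with both preparations, had windows without a match and are not shown. RSAD2 is shown although it passed in no comparison. Promoter sequence (250 bases before to 50 after a start site) was at hand from RefSeq, build GRCh38.p14, for 32 of the 40 members, in 44 windows of 300 bases. UBA7, OASL, USP18, OAS2, TRIM22, IFITM2, MX2 and IFIT2 had no entry. The core of the interferon-stimulated response element, searched as GAAANNGAA on both strands, was in the window of 26 of these 32 members (81.2%), against 9.86% of the 27305 genes with a window. Each stretch below runs 5′ to 3′ on the gene's strand over 190 bases, from 160 before the start site to 30 after it, with every match to the core, on either strand, in capitals. Overlapping matches form 1 run of capitals. ISG15 (chr1:1013337-1013526, plus strand) holds 3 overlapping cores and IFIT1 (chr10:89392463-89392652, plus strand) holds 2 on the opposite strand. HERC5 (chr4:88456959-88457148, plus strand) and IFI6 (chr1:27672163-27672352, minus strand) hold 3 each. DTX3L (chr3:122564178-122564367, plus strand) and RSAD2 (chr2:6865725-6865914, plus strand) hold 1 each.
ISG15: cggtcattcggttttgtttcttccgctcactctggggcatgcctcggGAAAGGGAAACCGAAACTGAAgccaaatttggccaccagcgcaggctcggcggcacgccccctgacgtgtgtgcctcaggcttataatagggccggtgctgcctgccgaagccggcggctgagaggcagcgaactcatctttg
IFIT1: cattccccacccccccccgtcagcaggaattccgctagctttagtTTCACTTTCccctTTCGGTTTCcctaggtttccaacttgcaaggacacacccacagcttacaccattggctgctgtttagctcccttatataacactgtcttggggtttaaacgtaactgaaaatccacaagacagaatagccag
HERC5: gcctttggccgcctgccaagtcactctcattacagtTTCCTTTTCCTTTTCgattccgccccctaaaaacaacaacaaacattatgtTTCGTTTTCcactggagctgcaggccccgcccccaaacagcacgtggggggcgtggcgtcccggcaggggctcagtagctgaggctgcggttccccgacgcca
IFI6: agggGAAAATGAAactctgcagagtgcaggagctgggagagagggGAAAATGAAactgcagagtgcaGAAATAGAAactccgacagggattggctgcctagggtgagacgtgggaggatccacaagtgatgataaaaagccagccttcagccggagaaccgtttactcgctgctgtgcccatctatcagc
DTX3L: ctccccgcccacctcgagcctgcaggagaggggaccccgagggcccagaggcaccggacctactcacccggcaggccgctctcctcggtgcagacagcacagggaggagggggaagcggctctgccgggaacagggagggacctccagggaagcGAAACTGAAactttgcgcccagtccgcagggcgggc
RSAD2: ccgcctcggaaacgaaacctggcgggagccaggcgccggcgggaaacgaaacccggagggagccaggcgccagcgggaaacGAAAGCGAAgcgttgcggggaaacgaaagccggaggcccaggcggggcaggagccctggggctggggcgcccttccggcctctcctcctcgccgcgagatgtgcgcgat

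The DTX3L core in capitals, chr3:122564332-122564340, is also the core in the window of PARP9, which is read from the opposite strand. In the same way the RSAD2 core, chr2:6865806-6865814, is the core in the window of the neighbouring CMPK2. HERC6, IFI35, OAS1, SAMD9L, SP100 and XAF1 had no match, which says only that these letters were not in their windows. The gamma-activated sequence, an element known from genes that interferon gamma induces, was searched as TTCNNNGAA on both strands and was in the windows of 10 of the 32 members (31.2%), against 9.38% of all genes with a window. A match describes the sequence and is no evidence of binding in these cells.

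Expression values are FPKM, fragments scaled by transcript length and by the total of each library, so levels can be compared between genes. The table holds no read counts and absolute depth is unknown. Judged by the smallest steps in the values, the other 8 libraries were 1.15 to 1.59 times as deep as control replicate 1. Part of the deposited values had lost their decimal point and were divided by 1000. Among the members this concerned 47 of 357 values in 20 genes. Where the gene also held decimal values, they stood 599 to 2085 times above the rest of their gene before the division. IFITM3 had only whole numbers and so nothing to compare them with, and its level rests on that division. ENAH measured 26.1, 30.04 and 26.1 FPKM in control replicates 1 to 3, 4.43, 5.79 and 5.57 FPKM with siMENA and 9.98, 11.02 and 10.3 FPKM with siMENA11a, means of 0.192 and 0.381 times control. Of the epithelial markers, EPCAM, KRT7 and CLDN4 likewise had only whole numbers, so their levels rest on the division too. All 7 epithelial markers looked for were present at 135 to 1611 FPKM per library (KRT8 was the highest). Their sums were 5040.4 to 5392 FPKM in control, 4944 to 5187 FPKM with siMENA and 4233 to 4751 FPKM with siMENA11a, and against control 1 of the 7 was called lower with siMENA and 3 with siMENA11a. Among all genes tested, 8.24% were lower with siMENA and 11.3% with siMENA11a. Of 8 leukocyte markers CD14, CD68 and LYZ were in the table, with summed levels of 14.4 to 19.3 FPKM in control, 13.7 to 16.7 FPKM with siMENA and 15.1 to 20.2 FPKM with siMENA11a, while the defining markers PTPRC, CD3E, MS4A1, ITGAM and CLEC4C were not listed. Control replicate 1 has a value for every gene of the table and each other library lacks 411 to 592, so genes without a value in that library may have been left out of the table, and a marker that is not listed has no known level in the siRNA libraries. Of 6 fibroblast markers 3 were listed (COL1A1, COL1A2 and FAP), with sums of 5.17 to 7.45, 6.00 to 7.67 and 8.62 to 11.2 FPKM, nearly all of it FAP, which was called higher with siMENA11a (0.60 on the log2 scale). Of 4 endothelial markers 3 were listed, each at 0.379 FPKM or less. The part of such cells in the results was not tested.

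Each siRNA preparation came with higher levels of many of the members, and no member fell. Of the 39 members tested, 20 rose with siMENA (51.3%) and 20 rose with siMENA11a (51.3%), by limma's moderated test on log2(FPKM + 1) with Benjamini-Hochberg adjustment over all 13273 genes and a threshold of 0.05. Over all genes tested, 10.3% rose and 8.24% fell with siMENA, and 8.16% rose and 11.3% fell with siMENA11a. The median difference of the 39 members was 0.43 on the log2(FPKM + 1) scale with siMENA, beside 0.04 over all genes, and 0.48 with siMENA11a, beside -0.01 over all genes. This scale understates the change of genes with low levels. At an unadjusted p under 0.05, 27 members were higher and 1 (IFI6) was lower with siMENA, and 26 were higher and 0 lower with siMENA11a. All 3 siMENA libraries lay above all 3 control libraries for 26 members, and below them for 0, where 23.8% and 16.3% of all genes did so. With siMENA11a this was so for 23 and 0 members, where 16.6% and 20.2% of all genes did so. The 23 members and the 26 above include IFI44L. That gene passed the filter of 0.5 FPKM only through the siRNA groups, so it lends these counts no support. Leaving out 1 library moved the siMENA count most without control replicate 1 (13 higher), control replicate 3 (13) or siMENA replicate 2 (12, with IFI6 lower), and the siMENA11a count most without control replicate 3 (13). With the replicate number as a block in the model, 28 members were higher and 1 (IFI6) was lower with siMENA. The 2 comparisons share their control libraries, so their values are given side by side below and are not independent of each other. The map of all members by library shows both siRNA groups above control in most rows.

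**Figure D1:**
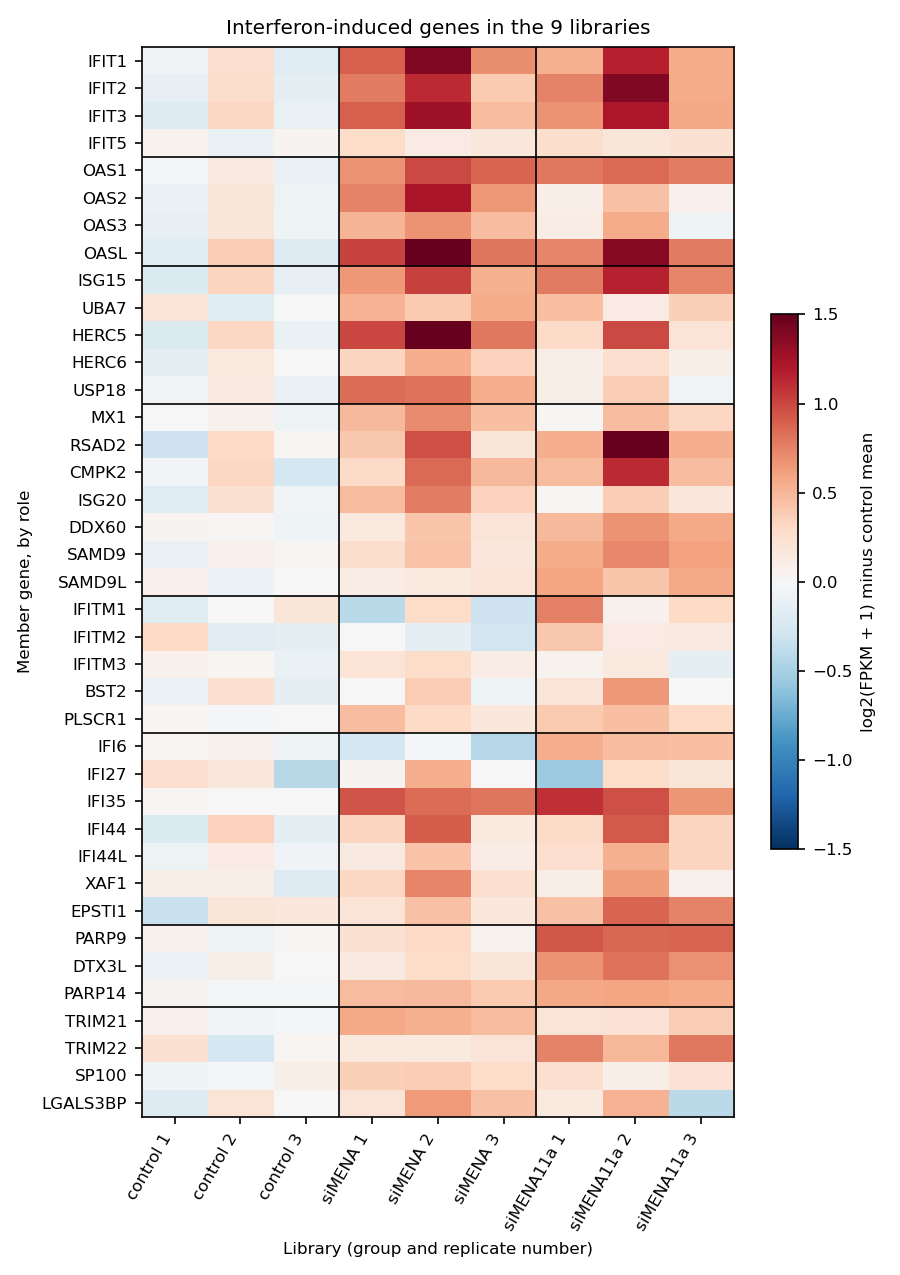
Level of each of the 39 members tested (rows, by role, with lines between roles) in the 9 libraries (columns), as log2(FPKM + 1) minus the mean of the 3 control libraries of that gene. Red is above the control mean and blue below it, and most rows turn red in both siRNA groups, where 20 members each passed the test.

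The libraries numbered 2 stood apart in these genes in every group. The median of the 39 members, each taken relative to the mean of its own group, was 0.13 in control replicate 2, 0.16 in siMENA replicate 2 and 0.17 in siMENA11a replicate 2 on the log2 scale. In the 6 other libraries it was -0.12 to -0.05, while the median over all genes was within -0.01 and 0.02 in every library. Replicate 2 was the highest library in all 3 groups for 22 of the 39 members (56.4%), against 13.5% of all genes. These 22 include ISG15, IFIT1, IFIT2, IFIT3, the 4 oligoadenylate synthetase genes, HERC5, RSAD2 and CMPK2, and leave out PARP9, PARP14, IFI35 and IFI6. Counting with the 3 libraries numbered 2 left out, an alternative added after the data were seen, again gave 20 members higher with siMENA and 20 with siMENA11a. The members were in part different ones. With siMENA, SAMD9 (adjusted p 0.0577) and PLSCR1 (0.104) were lost, CMPK2 (0.027) and IFI44 (0.0213) were gained, and IFI6 was lower (log2 difference -0.31, adjusted p 0.043). With siMENA11a, IFIT5 (adjusted p 0.111), PLSCR1 (0.0776) and TRIM21 (0.138) were lost, and HERC5 (0.0277), RSAD2 (0.0195) and IFI44 (0.0122) were gained. What the libraries numbered 2 share was not tested.

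**Figure D2:**
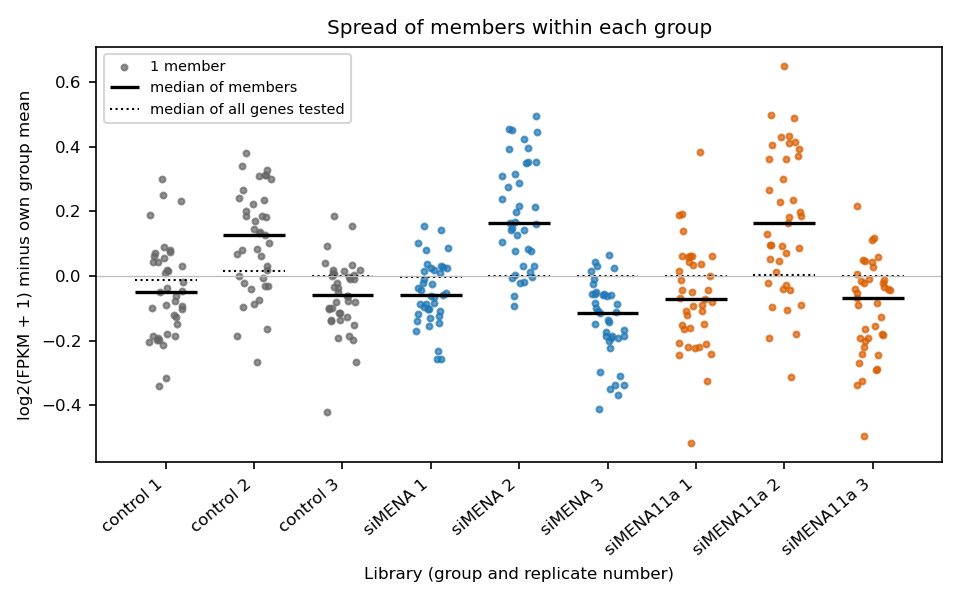
Each point is 1 member in 1 library, as log2(FPKM + 1) minus the mean of its own group for that gene, with a solid line at the median of the 39 members and a dotted line at the median of all genes tested. In each group the solid line of replicate 2, at 0.13 to 0.17, lies above those of replicates 1 and 3, while the dotted lines stay near 0.

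The IFIT genes encode proteins that bind viral RNA and hold it back from translation, and 3 of the 4 rose with siMENA and all 4 with siMENA11a. IFIT1, which recognises RNA whose cap lacks the host's methyl marks, measured 38.2, 46.7 and 34.7 FPKM in control replicates 1 to 3, 74.6, 105 and 64.8 FPKM with siMENA and 57.7, 90.1 and 58.8 FPKM with siMENA11a. IFIT2 and IFIT3 form complexes with IFIT1. For IFIT2 the libraries held 67.3, 88.7 and 66.7 FPKM (control), 127, 161 and 97.3 FPKM (siMENA) and 124, 194 and 109 FPKM (siMENA11a). For IFIT3 they held 36.2, 52.1 and 38.4, then 78.6, 102 and 58.1, then 66.97, 98.02 and 62.7 FPKM in the same order. In all 3 genes every library of both siRNA groups lay above every control library, and the library numbered 2 was the highest of its group. With siMENA the log2 differences from control were 1.00 ± 0.20 (SE) for IFIT1, 0.77 ± 0.23 for IFIT2 and 0.88 ± 0.22 for IFIT3, with limma adjusted p of 0.0092, 0.0419 and 0.0219. With siMENA11a they were 0.75, 0.90 and 0.82, with adjusted p of 0.0288, 0.0221 and 0.0287. The calls other than that of IFIT1 with siMENA did not hold when certain single libraries were left out. The IFIT2 call with siMENA was lost without control replicate 1 or 3, siMENA replicate 1 or 2 or siMENA11a replicate 1 (adjusted p 0.0561 to 0.132; 0.000729 to 0.132 over all alternatives). That of IFIT3 was lost on omitting control replicate 1 or 3 or siMENA replicate 1 or 2 (0.0695 to 0.0774; 0.000374 to 0.0774 over all alternatives). With siMENA11a, IFIT1 was lost on omitting control replicate 1 or 3 or siMENA11a replicate 2 (0.0684 to 0.0983; 0.000337 to 0.0983 over all alternatives), IFIT2 without control replicate 1 or 3 (0.0682 to 0.0753; 0.000358 to 0.0753 over all alternatives) and IFIT3 on omitting control replicate 1 or 3 or siMENA11a replicate 1 or 2 (0.0512 to 0.091; 0.000547 to 0.091 over all alternatives). IFIT5, which binds RNA with a bare phosphate end, differed less. Its means were 15.8 FPKM in control, 18.1 FPKM with siMENA (0.19 on the log2 scale, adjusted p 0.063, and 0.0279 with the replicate number as a block) and 18.5 FPKM with siMENA11a (0.22, adjusted p 0.0352). The latter call was lost on omitting control replicate 1, 2 or 3 or siMENA11a replicate 1 or 3 (0.0502 to 0.117; 0.0145 to 0.117 over all alternatives).

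The oligoadenylate synthetases sense double-stranded RNA and make the messenger that activates RNase L, while OASL lacks that activity and acts on RNA sensing. All 4 rose with siMENA, and OAS1 and OASL rose with siMENA11a. OAS1 measured 7.12, 8.03 and 6.604 FPKM in control replicates 1 to 3, 12.2, 15.4 and 14.1 FPKM with siMENA and 13.3, 13.9 and 13.1 FPKM with siMENA11a. OASL, the most abundant of the 4, held 32.6, 48.5 and 32.1 FPKM in control, 76.1, 114 and 65.3 FPKM with siMENA and 62.4, 97.1 and 64.2 FPKM with siMENA11a. OAS2 was at 3.93, 5.03 and 4.01 FPKM in control, 7.87, 11.4 and 7.31 FPKM with siMENA and 4.67, 6.197 and 4.603 FPKM with siMENA11a. OAS1 and OASL had no overlap between control and either siRNA group, whereas the siMENA11a libraries of OAS2 overlapped control and lay below every siMENA library. OAS1 rose by 0.85 ± 0.09 with siMENA and 0.81 ± 0.09 with siMENA11a (limma adjusted p 0.000312 and 0.000485). OASL rose by 1.14 ± 0.23 and 0.96 ± 0.23 (adjusted p 0.00937 and 0.0189), and the latter call was lost without control replicate 1 or 3 (0.063 to 0.07; 8.86e-05 to 0.07 over all alternatives). OAS2 rose by 0.87 ± 0.16 with siMENA (adjusted p 0.00535), differed by 0.21 ± 0.16 with siMENA11a (adjusted p 0.398), and was lower with siMENA11a than with siMENA by a log2 difference of -0.67 ± 0.16 (adjusted p 0.00879). OAS3 went from a mean of 6.89 FPKM in control to 10.5 FPKM with siMENA (log2 difference 0.55, adjusted p 0.0293), and its mean with siMENA11a was 8.17 FPKM (0.20, adjusted p 0.386). Its siMENA call was lost without control replicate 1 or 3 or any 1 siMENA library (0.0517 to 0.0962; 0.00351 to 0.0962 over all alternatives).

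The genes of the ISG15 cycle differed in part between the preparations. ISG15 is the modifier itself, UBA7 its activating enzyme, HERC5 the ligase that attaches it to new proteins, and USP18 the protease that removes it and also damps the interferon receptor. HERC6 is a relative of HERC5. All 5 rose with siMENA, 1 of 5 (ISG15) rose with siMENA11a, and USP18 and HERC6 were lower with siMENA11a than with siMENA. ISG15 measured 79.4, 115 and 83.5 FPKM in control replicates 1 to 3, 144, 186 and 133 FPKM with siMENA and 157, 204 and 152 FPKM with siMENA11a. HERC5 held 12.97, 19.1 and 14.1 FPKM in control, 31.3, 49.2 and 27 FPKM with siMENA and 18.8, 31.2 and 17.7 FPKM with siMENA11a. USP18 was at 6.94, 7.95 and 6.58 FPKM in control, 13.5, 13.3 and 10.9 FPKM with siMENA and 7.67, 9.52 and 6.93 FPKM with siMENA11a. ISG15 was above control in every library of both siRNA groups, while HERC5 and USP18 were above control in every siMENA library and overlapped control with siMENA11a. ISG15 rose by 0.73 ± 0.17 with siMENA (limma adjusted p 0.0149) and by 0.89 ± 0.17 with siMENA11a (adjusted p 0.00627). Its siMENA call was lost on omitting control replicate 1 or 3 or siMENA replicate 2 (0.0519 to 0.0587; 9.79e-05 to 0.0587 over all alternatives). USP18 rose by 0.73 ± 0.12 with siMENA (adjusted p 0.00311), differed by 0.14 ± 0.12 with siMENA11a (adjusted p 0.44), and was lower with siMENA11a than with siMENA by -0.59 ± 0.12 on the log2 scale (adjusted p 0.00372). USP18 has a near-identical copy, USP41, and how fragments were split between such genes is not given in the sources used here. HERC5 rose by 1.14 ± 0.25 with siMENA (adjusted p 0.0127) and differed by 0.50 ± 0.25 with siMENA11a (adjusted p 0.196). Between the siRNA groups its log2 difference was -0.64 ± 0.25, with an adjusted p of 0.0696. UBA7 had means of 10.99, 15.7 and 13.9 FPKM in control, siMENA and siMENA11a (adjusted p 0.013 and 0.0708 against control), and HERC6 had means of 9.69, 13.2 and 10.8 FPKM (adjusted p 0.0135 and 0.309). The HERC6 call with siMENA was lost without siMENA replicate 2 (0.0505; 0.00209 to 0.0505 over all alternatives).

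**Figure D3:**
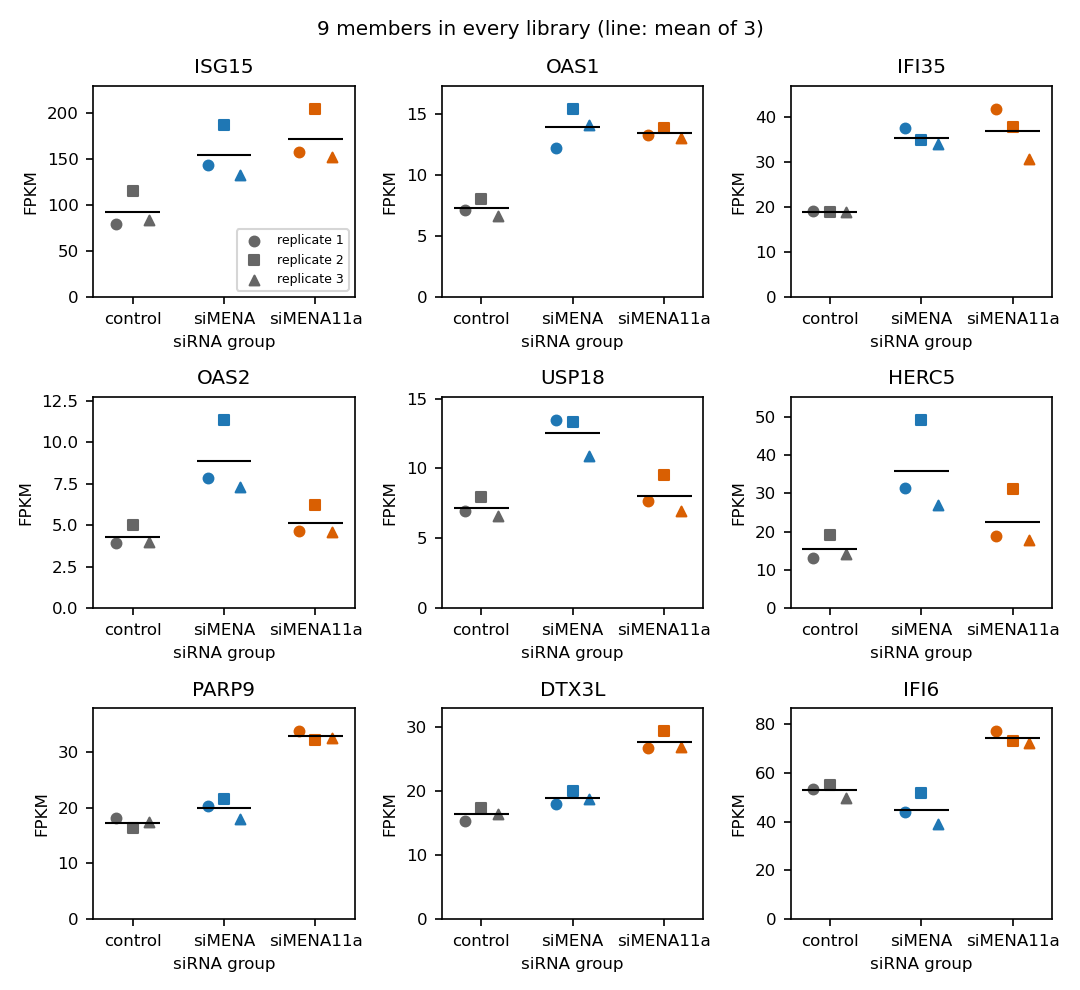
FPKM of 9 members (panels) in every library of control, siMENA and siMENA11a, each axis starting at 0, with marker shapes for the replicate number and a line at the mean of 3. ISG15, OAS1 and IFI35 were above control in both siRNA groups, OAS2 and USP18 were highest with siMENA, and PARP9, DTX3L and IFI6 were highest with siMENA11a. HERC5 had its highest mean with siMENA, but its siRNA groups overlapped.

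Among the genes of GTPases and of enzymes that act on nucleotides and nucleic acids, 3 of 7 tested rose with siMENA (MX1, ISG20 and SAMD9) and 4 rose with siMENA11a (CMPK2, DDX60, SAMD9 and SAMD9L). SAMD9 and its neighbour SAMD9L encode proteins that stop the growth of poxviruses. SAMD9 measured 16.8, 19.1 and 18.3 FPKM in control replicates 1 to 3, 21.9, 24.7 and 20.5 FPKM with siMENA and 27.1, 30.4 and 28.02 FPKM with siMENA11a. DDX60, a helicase-like protein tied to RNA sensing, was at 11.6, 11.3 and 10.7 FPKM in control, 12.5, 15.2 and 12.9 FPKM with siMENA and 16.04, 18.4 and 17.03 FPKM with siMENA11a. Both genes stepped up without overlap from control to siMENA and from siMENA to siMENA11a. SAMD9 rose by 0.29 ± 0.08 with siMENA (limma adjusted p 0.0297) and by 0.63 ± 0.08 with siMENA11a (adjusted p 0.000793). The former call was lost on omitting control replicate 1 or 3 or siMENA replicate 1 or 2 (0.073 to 0.102; 0.00798 to 0.102 over all alternatives). DDX60 rose by 0.57 ± 0.08 with siMENA11a (adjusted p 0.00141), and with siMENA its difference was 0.25 ± 0.08 (adjusted p 0.0575, and 0.027 with the replicate number as a block). SAMD9L had means of 5.21, 5.89 and 7.93 FPKM in control, siMENA and siMENA11a, with differences from control of 0.15 (adjusted p 0.172) and 0.52 (adjusted p 0.00133).

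RSAD2, also called viperin, makes a nucleotide that ends viral RNA chains, and CMPK2, its neighbour with the shared promoter core shown above, is a nucleotide kinase. RSAD2 measured 1.31, 2.53 and 1.91 FPKM in control replicates 1 to 3, 2.81, 4.59 and 2.25 FPKM with siMENA and 3.198, 7.25 and 3.2 FPKM with siMENA11a. CMPK2 held 2.33, 3.27 and 1.86 FPKM in control, 3.18, 5.23 and 3.81 FPKM with siMENA and 3.78, 6.46 and 3.75 FPKM with siMENA11a. In both genes the library numbered 2 was the highest of each group, the siMENA libraries overlapped control and the siMENA11a libraries did not. RSAD2 passed in neither comparison (0.52 ± 0.28, limma adjusted p 0.235 with siMENA, and 0.87 ± 0.28, adjusted p 0.0567 with siMENA11a), and the block on replicate number gave 0.0248 for siMENA. CMPK2 rose by 0.68 ± 0.21 with siMENA11a (adjusted p 0.0477), a call that was lost without control replicate 1 or 3, siMENA replicate 1 or 3, or any 1 siMENA11a library (0.0519 to 0.154; 0.00157 to 0.154 over all alternatives). Its difference with siMENA was 0.54 ± 0.21 (adjusted p 0.104, and 0.00489 with the block). MX1, a GTPase that traps viral nucleocapsids, had means of 5.93 FPKM in control, 9.14 FPKM with siMENA (0.55, adjusted p 0.00999) and 7.41 FPKM with siMENA11a (0.27, adjusted p 0.13). Its relative MX2 was at 0.0173 to 0.1 FPKM in the 6 libraries with a value, lacked a value in 3, and is the member that was not tested. ISG20, an RNA exonuclease, had means of 9.36, 14 and 10.7 FPKM (0.53, adjusted p 0.0233 with siMENA, and 0.18, adjusted p 0.393 with siMENA11a). Its siMENA call was lost on omitting control replicate 1 or 3 or siMENA replicate 1 or 2 (0.0593 to 0.0833; 0.00142 to 0.0833 over all alternatives).

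Of 5 genes of membrane restriction factors, PLSCR1 rose with each preparation and the other 4 passed in neither comparison with control. The IFITM proteins hinder fusion of viral and cell membranes, BST2 tethers budding virus to the surface, and PLSCR1 is a phospholipid scramblase. PLSCR1 measured 17.6, 16.8 and 17.2 FPKM in control replicates 1 to 3, 23.9, 21.3 and 19.2 FPKM with siMENA and 22.9, 23.8 and 21.3 FPKM with siMENA11a. All libraries of both siRNA groups lay above control, and the gene rose by 0.30 ± 0.08 with siMENA (limma adjusted p 0.0228) and by 0.38 ± 0.08 with siMENA11a (adjusted p 0.00867). Its siMENA call was lost without any 1 control library or without siMENA replicate 1 or 2 (0.0525 to 0.0784; 0.0107 to 0.104 over all alternatives). IFITM3, the member with the highest level (mean 174.5 FPKM over the 9 libraries), held 173, 169 and 154 FPKM in control, 191, 200 and 179 FPKM with siMENA and 171, 184 and 150 FPKM with siMENA11a. The siMENA libraries lay above control and the siMENA11a libraries overlapped it. Its difference with siMENA was 0.20 ± 0.08 (adjusted p 0.122, and 0.0296 with the replicate number as a block). IFITM2 had means of 67.7, 61.1 and 78.5 FPKM, IFITM1 of 1.46, 1.26 and 2.23 FPKM, and BST2 of 68, 73.5 and 83.7 FPKM, with adjusted p of 0.245 or more against control. The 3 IFITM genes are close copies, so their levels relative to each other are uncertain.

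Of a set of 7 genes (those with IFI names, XAF1 and EPSTI1), IFI35 rose with siMENA, and IFI35, IFI6 and EPSTI1 rose with siMENA11a. IFI35, a protein that binds other interferon-induced proteins, measured 19.2, 18.9 and 18.9 FPKM in control replicates 1 to 3, 37.6, 34.9 and 34.01 FPKM with siMENA and 41.9, 37.9 and 30.8 FPKM with siMENA11a. IFI6, a small membrane protein that limits flaviviruses, held 53.4, 55.1 and 49.8 FPKM in control, 43.8, 51.7 and 38.9 FPKM with siMENA and 77.3, 73.1 and 72.1 FPKM with siMENA11a. EPSTI1 was at 1.34, 2.36 and 2.29 FPKM in control, 2.42, 3.001 and 2.3 FPKM with siMENA and 3.03, 4.41 and 3.96 FPKM with siMENA11a. IFI35 was above control without overlap in both siRNA groups, and IFI6 and EPSTI1 with siMENA11a. IFI35 rose by 0.87 ± 0.10 with siMENA and 0.91 ± 0.10 with siMENA11a (limma adjusted p 0.000383 and 0.000319). IFI6 rose by 0.48 ± 0.09 with siMENA11a (adjusted p 0.00585), and its difference with siMENA had the other sign, -0.24 ± 0.09 (adjusted p 0.094, and 0.0426 with the replicate number as a block). EPSTI1 rose by 0.69 ± 0.16 with siMENA11a (adjusted p 0.0147) and differed by 0.27 ± 0.16 with siMENA (adjusted p 0.267). IFI44, the most abundant gene of this set that passed in neither comparison, held 12.3, 18.4 and 12.96 FPKM in control, 18.2, 27.9 and 16.03 FPKM with siMENA and 17.8, 28.1 and 18.1 FPKM with siMENA11a. Both siRNA groups overlapped control through control replicate 2, and the differences were 0.46 ± 0.23 (adjusted p 0.188, and 0.00197 with the block) and 0.51 ± 0.23 (adjusted p 0.147). XAF1, which binds an inhibitor of apoptosis, had means of 1.79, 2.79 and 2.39 FPKM (adjusted p 0.117 with siMENA, 0.0183 with the block, and 0.33 with siMENA11a). IFI27 had means of 9.23, 10.7 and 9.11 FPKM (adjusted p 0.612 and 0.944). IFI44L, with means of 0.305, 0.529 and 0.687 FPKM (adjusted p 0.224 and 0.0578), passed the filter of 0.5 FPKM only through the siRNA groups, and without it the medians of the members were 0.44 and 0.49.

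PARP9 and DTX3L form a pair of ADP-ribosyl and ubiquitin transferases, are transcribed away from each other, and hold the shared promoter core shown above. PARP14 is a related ADP-ribosyltransferase. All 3 rose with siMENA11a, and PARP14 rose with siMENA. PARP9 measured 18.1, 16.3 and 17.5 FPKM in control replicates 1 to 3, 20.3, 21.5 and 18 FPKM with siMENA and 33.8, 32.1 and 32.4 FPKM with siMENA11a. DTX3L held 15.3, 17.4 and 16.5 FPKM in control, 18.05, 20.02 and 18.8 FPKM with siMENA and 26.8, 29.5 and 26.9 FPKM with siMENA11a. PARP14 was at 22.1, 21.1 and 21.1 FPKM in control, 30.2, 30.3 and 28.5 FPKM with siMENA and 32.4, 32.7 and 32.1 FPKM with siMENA11a. The siMENA11a libraries of PARP9 and DTX3L lay far above all other libraries and within a narrow range, while PARP14 was above control in both siRNA groups. PARP9 rose by 0.89 ± 0.07 with siMENA11a (limma adjusted p 6.91e-05) and differed by 0.19 ± 0.07 with siMENA (adjusted p 0.0794). DTX3L rose by 0.72 ± 0.07 with siMENA11a (adjusted p 0.000153) and differed by 0.20 ± 0.07 with siMENA (adjusted p 0.066, and 0.0195 with the replicate number as a block). PARP14 rose by 0.45 ± 0.05 with siMENA and 0.57 ± 0.05 with siMENA11a (adjusted p 0.000307 and 8.83e-05). Libraries were stranded, but whether strand was used in quantification is not given in the sources used here, so fragments near the shared start of PARP9 and DTX3L may be counted for either.

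TRIM21 is a receptor for antibody inside the cell and TRIM22 a ubiquitin ligase that limits viral transcription. SP100 is a component of nuclear bodies, and LGALS3BP is a secreted glycoprotein that binds galectins. TRIM21 and SP100 rose with siMENA, and TRIM21 and TRIM22 rose with siMENA11a. TRIM22 measured 5.05, 3.28 and 4.28 FPKM in control replicates 1 to 3, 4.71, 4.68 and 4.87 FPKM with siMENA and 7.604, 6.29 and 7.94 FPKM with siMENA11a. TRIM21 held 3.73, 3.37 and 3.39 FPKM in control, 5.65, 5.53 and 5.26 FPKM with siMENA and 4.12, 4.23 and 4.81 FPKM with siMENA11a. SP100 was at 19.6, 20.04 and 21.96 FPKM in control, 26.7, 26.7 and 25.1 FPKM with siMENA and 24.6, 22.04 and 24 FPKM with siMENA11a. TRIM22 was highest with siMENA11a and TRIM21 with siMENA, both without overlap with the other groups, and SP100 was above control with siMENA, while its lowest siMENA11a library barely passed its highest control library. TRIM22 rose by 0.68 ± 0.12 with siMENA11a (limma adjusted p 0.00493) and differed by 0.16 ± 0.12 with siMENA (adjusted p 0.398). TRIM21 rose by 0.53 ± 0.07 with siMENA (adjusted p 0.00158) and by 0.26 ± 0.07 with siMENA11a (adjusted p 0.0362). The latter call was lost without control replicate 2 or 3, siMENA replicate 1 or 2 or siMENA11a replicate 1 or 3 (0.0512 to 0.111; 0.0319 to 0.138 over all alternatives). SP100 rose by 0.34 ± 0.06 with siMENA (adjusted p 0.00598) and differed by 0.19 ± 0.06 with siMENA11a (adjusted p 0.061). LGALS3BP, the most abundant of the 4, held 74.8, 98.5 and 85.1 FPKM in control, 98.01, 134 and 117 FPKM with siMENA and 95.1, 123 and 64.3 FPKM with siMENA11a. Its groups overlapped (adjusted p 0.18 and 0.808).

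**Figure D4:**
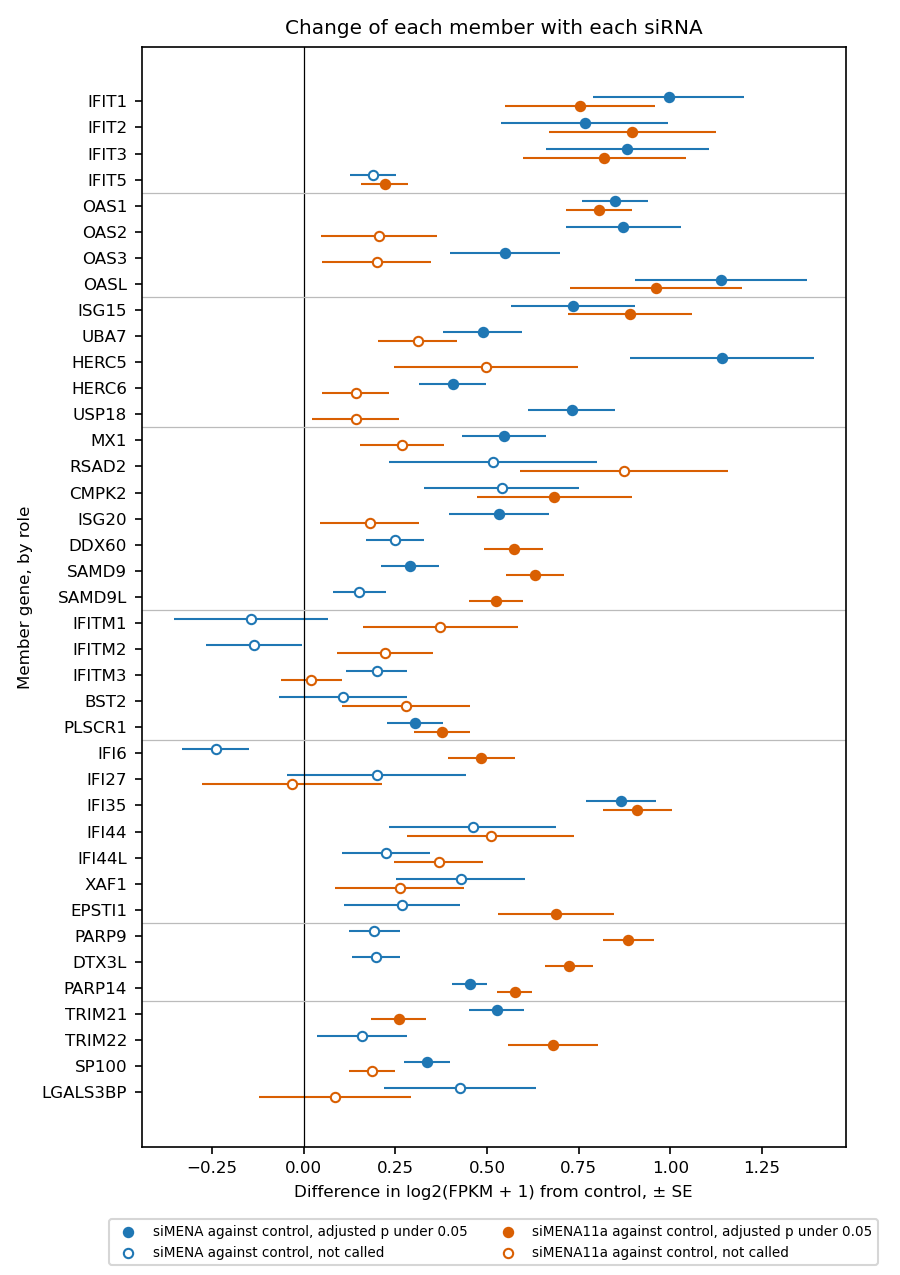
Difference in log2(FPKM + 1) of each of the 39 members tested from control, with its standard error, for siMENA (blue) and siMENA11a (orange), by role, with 3 libraries per group. Filled points passed at an adjusted p under 0.05 (20 in each comparison), and no filled point lies below 0.

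The siMENA11a and siMENA groups were then compared directly, a comparison that does not use the control means. By this test 7 of the 39 members were higher with siMENA11a (17.9%), where 14.4% of all genes were, and 4 were lower (10.3%), where 22.2% of all genes were. No overlap between the groups was seen for 10 members higher and 5 lower, where 19.2% and 28.6% of all genes had none, so the members' shares of higher genes lay near those of all genes. The median difference was 0.04 over the members and -0.05 over all genes. Median-ratio scaling gave 10 higher and 3 lower members, and quantile normalization gave 10 and 2. Higher with siMENA11a were IFI6 (0.72 ± 0.09 on the log2 scale, limma adjusted p 0.000276), PARP9 (0.69 ± 0.07, 7.49e-05) and DTX3L (0.53 ± 0.07, 0.000286). TRIM22 (0.52, 0.00864), SAMD9L (0.37, 0.00329), SAMD9 (0.34, 0.00764) and DDX60 (0.32, 0.0111) followed. Lower with siMENA11a, beside OAS2 and USP18 described above, were TRIM21 (-0.27 ± 0.07, 0.0187) and HERC6 (-0.26 ± 0.09, 0.0444). The TRIM21 call was lost without siMENA replicate 1 or 2 or siMENA11a replicate 1 (0.055 to 0.0689; 0.0126 to 0.105 over all alternatives), and that of HERC6 without control replicate 3, any 1 siMENA library or siMENA11a replicate 1 or 3 (0.0538 to 0.156; 0.00654 to 0.156 over all alternatives). Quantile normalization also removed both of these calls, and median-ratio scaling removed that of HERC6. The IFIT genes, ISG15, OAS1, OASL, IFI35 and PARP14 did not pass here. The standard errors of these differences were 0.048 to 0.235 on the log2 scale. A call took a difference well above its standard error, and HERC5 did not pass at -0.64 ± 0.25 (limma adjusted p 0.0696). A missing call is therefore no evidence that the preparations were equal. Leaving out the 3 libraries numbered 2 gave 8 higher, with IFITM1 added (adjusted p 0.00964), and 5 lower, with OAS3 (0.00754), HERC5 (0.00223) and ISG20 (0.0342) added and HERC6 (0.0548) and TRIM21 (0.105) lost. The count of lower members was 2 without siMENA replicate 1, siMENA replicate 2 or siMENA11a replicate 1, and 10 without siMENA11a replicate 2.

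**Figure D5:**
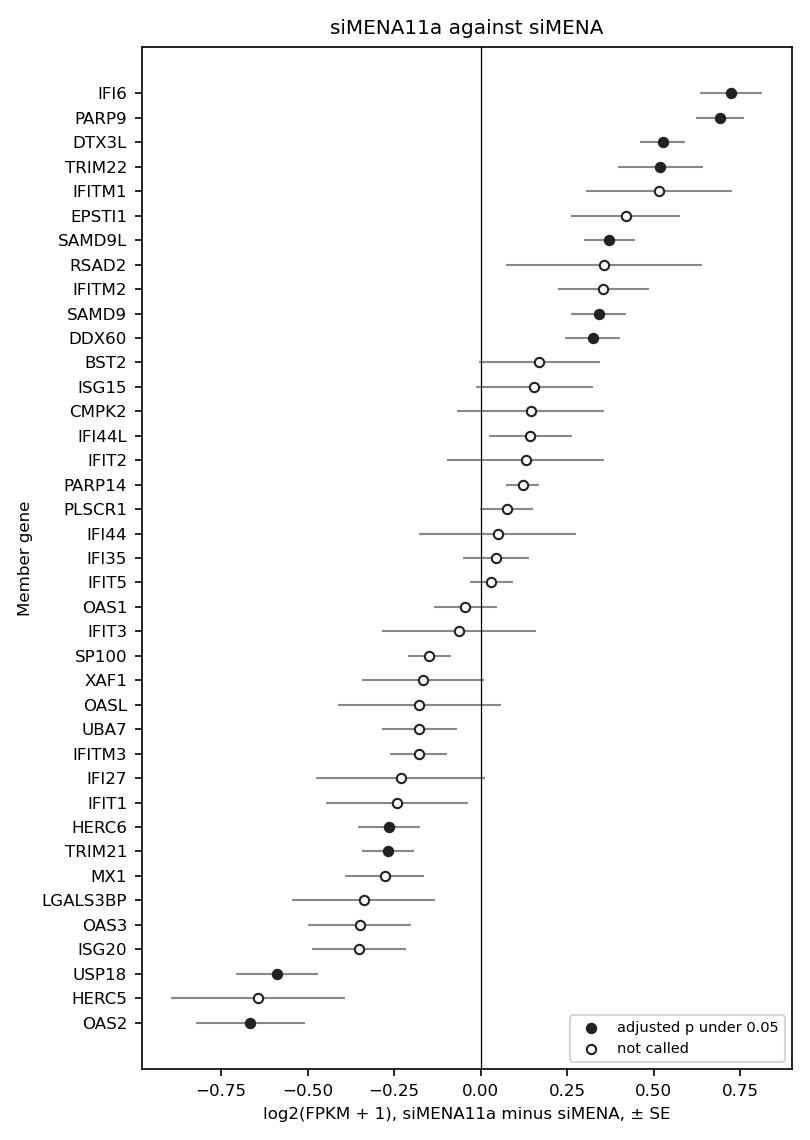
Difference in log2(FPKM + 1) between siMENA11a and siMENA for the 39 members tested, sorted by size, with its standard error and 3 libraries per group. Filled points passed at an adjusted p under 0.05, 7 to the right (IFI6 and PARP9 the farthest) and 4 to the left (OAS2 and USP18 the farthest).

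The genes upstream of these effectors were read from lists of ligands, receptors, transcription factors, sensors and inhibitors. Of the ligands, interferon beta (IFNB1) fell under the filter of 0.5 FPKM, with a mean of 0.439 FPKM. Its level was 0.2101, 0.145 and 0.2003 FPKM in the control libraries, 0.363, 0.286 and 0.407 FPKM with siMENA and 0.641, 1.01 and 0.694 FPKM with siMENA11a, so the 3 groups did not overlap. In the fit with no filter its difference was 0.58 ± 0.08 on the log2 scale for siMENA11a against control (limma adjusted p 0.002), 0.39 ± 0.08 for siMENA11a against siMENA (adjusted p 0.00543) and 0.19 ± 0.08 for siMENA against control (adjusted p 0.139). Permuting the 6 libraries of each comparison exhaustively (an exact test, two-sided) gave p = 0.1 each time, the smallest that 3 against 3 libraries allow. The 2 ligand genes above the filter, IFNE and IL29 (a type III interferon), passed in none of the comparisons, with means of 1.54, 2.79 and 2.79 FPKM for IL29.

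The transcription factors that carry the signal rose in part. Of 7 STAT and IRF genes tested, 4 rose with siMENA and 2 with siMENA11a, and 0 fell in either. Among all genes tested, 10.3% rose with siMENA and 8.16% with siMENA11a. IRF9, the DNA-binding part of the complex, measured 15.1, 14.5 and 15.7 FPKM in control replicates 1 to 3, 21.3, 20.1 and 21.01 FPKM with siMENA and 31.7, 27.3 and 29.1 FPKM with siMENA11a. IRF9 stepped up without overlap from control to siMENA to siMENA11a. Of the members tested, SAMD9, SAMD9L, DDX60, DTX3L and PARP14 did so and the others did not. Over all genes, 23.8% were above control with siMENA without overlap, and 19.2% were above siMENA with siMENA11a. The share that made both steps was not counted, and a link of these members to IRF9 was not tested. IRF9 was higher with siMENA11a than with siMENA by 0.48 ± 0.06 on the log2 scale (limma adjusted p 0.00039). IRF1 had means of 21.9, 28.3 and 26.4 FPKM (adjusted p 0.00946 and 0.034 against control), and its siMENA11a call was lost on omitting control replicate 2 or 3 or siMENA11a replicate 1 or 3 (0.0509 to 0.114; 0.0058 to 0.114 over all alternatives). IRF3, which is activated downstream of the sensors and their adaptors, had means of 48.5, 55.9 and 45.5 FPKM (adjusted p 0.0413 with siMENA). Its siMENA call was lost without any 1 control library or without siMENA replicate 2 or 3 (0.0684 to 0.146; 0.0364 to 0.146 over all alternatives). This call was also lost with median-ratio scaling, with quantile normalization and without the 3 libraries numbered 2. IRF3 was lower with siMENA11a than with siMENA by -0.29 ± 0.06 (adjusted p 0.00402). IRF2, a factor that competes with IRF1 for its sites, had means of 10.3, 12 and 10.8 FPKM (adjusted p 0.0304 with siMENA), and this call did not hold with control replicate 1 or 3 or any 1 siMENA library left out (0.0679 to 0.114; 0.0244 to 0.114 over all alternatives). The IRF2 call was also lost with median-ratio scaling and without the 3 libraries numbered 2. STAT2, the partner of IRF9 in the complex, had means of 28.3, 29.6 and 30.4 FPKM and passed in neither comparison with control (adjusted p 0.479 and 0.234).

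Of 15 tested genes of nucleic acid sensors and adaptors, 7 rose and 1 fell with siMENA, and 7 rose and 0 fell with siMENA11a. Of all genes tested, 10.3% rose and 8.24% fell with siMENA, and 8.16% rose and 11.3% fell with siMENA11a. IFIH1 (MDA5) and DDX58 (RIG-I), the cytoplasmic sensors of double-stranded RNA, rose with both. IFIH1 measured 9.25, 11.9 and 9.52 FPKM in control replicates 1 to 3, 17.98, 22.1 and 18.2 FPKM with siMENA and 15.9, 19.3 and 13.7 FPKM with siMENA11a, and DDX58 held 19.8, 23.9 and 19.2, 30.6, 38.9 and 29.1 and 33.8, 41.4 and 33.1 FPKM in the same order. Every library of both siRNA groups lay above control for both sensors. The log2 differences of IFIH1 were 0.87 ± 0.13 and 0.62 ± 0.13 (limma adjusted p 0.00215 and 0.00985) and those of DDX58 were 0.62 ± 0.12 and 0.75 ± 0.12 (adjusted p 0.00843 and 0.00325). ZC3HAV1, a zinc finger protein that marks foreign RNA for decay, had means of 40.4, 61.4 and 60.2 FPKM (adjusted p 0.0247 and 0.0318). Its siMENA call was lost on omitting control replicate 1 or 3 or siMENA replicate 1 or 2 (0.0752 to 0.0844; 0.0015 to 0.0844 over all alternatives) and the other call when control replicate 1, control replicate 3 or siMENA11a replicate 2 was left out (0.0619 to 0.0954; 0.00186 to 0.0954 over all alternatives). ZNFX1, a helicase-like sensor, had means of 40.5, 57.8 and 52.2 FPKM (adjusted p 0.000898 and 0.00495). EIF2AK2 (PKR), the kinase that stops translation on double-stranded RNA, had means of 18.4, 21.3 and 24.3 FPKM. It rose by 0.20 ± 0.05 with siMENA and by 0.39 ± 0.05 with siMENA11a (limma adjusted p 0.0219 and 0.00112). The siMENA call was lost on omitting control replicate 1 or 2 or siMENA replicate 1 or 2 (0.0643 to 0.0718, and 0.0191 to 0.115 over all alternatives). Between siMENA11a and siMENA its difference was 0.18 ± 0.05 (adjusted p 0.0197). That call was lost without siMENA replicate 1 or 2 or siMENA11a replicate 2 or 3 (0.0505 to 0.0524, and 0.00664 to 0.107 over all alternatives). MAVS, the adaptor on which IFIH1 and DDX58 converge, was the gene that fell, from 16.3, 15.8 and 17.1 FPKM in control to 10.7, 11.6 and 11.9 FPKM with siMENA, and it held 17.7, 16.99 and 16.5 FPKM with siMENA11a. The siMENA libraries of MAVS lay below all others, with a log2 difference from control of -0.49 ± 0.06 (adjusted p 0.00068) and one of 0.54 ± 0.06 between siMENA11a and siMENA (adjusted p 0.00013). TRIM25, of the same list, rose with siMENA (adjusted p 0.00644) and did not pass with siMENA11a against control (0.235). It was lower with siMENA11a than with siMENA by -0.30 ± 0.085 (adjusted p 0.0215). That call was lost without siMENA replicate 2 or 3 or siMENA11a replicate 1 or 3 (0.0523 to 0.0652, and 0.00217 to 0.0652 over all alternatives).

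Receptor and inhibitor genes moved both ways. Of 8 receptor and kinase genes tested, 3 rose (TYK2, JAK1 and IFNGR2) and 2 fell (IFNGR1 and IL10RB) with siMENA, and 3 rose (IL10RB, IFNAR1 and IFNGR2) with siMENA11a. The shares over all genes tested were 10.3% higher and 8.24% lower with siMENA, and 8.16% higher and 11.3% lower with siMENA11a. IFNGR1, the binding chain for interferon gamma, measured 28.3, 32.6 and 26.3 FPKM in control replicates 1 to 3, 14.6, 20.3 and 17.3 FPKM with siMENA and 34.5, 38.7 and 38.7 FPKM with siMENA11a. IL10RB, a chain of the type III interferon receptor, held 16.8, 15.4 and 16.3 FPKM in control, 13.05, 12.3 and 14.3 FPKM with siMENA and 23.5, 23.5 and 24.3 FPKM with siMENA11a. Both were lowest with siMENA and highest with siMENA11a, with no overlap between the groups. IFNGR1 differed from control by -0.72 ± 0.11 with siMENA (limma adjusted p 0.0029) and by 0.35 ± 0.11 with siMENA11a (adjusted p 0.0536). IL10RB differed by -0.27 ± 0.06 with siMENA (adjusted p 0.0145, lost on omitting control replicate 1 or 3 or siMENA replicate 1 or 2, 0.0542 to 0.0563; 0.00939 to 0.0563 over all alternatives) and by 0.53 ± 0.06 with siMENA11a (adjusted p 0.00064). The kinase gene TYK2 had means of 16.5, 20.96 and 15.03 FPKM, rose by 0.33 ± 0.06 with siMENA (adjusted p 0.00371) and was lower with siMENA11a than with siMENA by -0.45 ± 0.06 (adjusted p 0.00023). JAK1, the other kinase, had means of 55.5, 66.3 and 62.4 FPKM, and its siMENA call (adjusted p 0.0167) was lost on omitting control replicate 1 or 3 or siMENA replicate 1 or 2 (0.0569 to 0.0687; 0.00829 to 0.0687 over all alternatives). IFNGR2, the second chain of the interferon gamma receptor, had means of 42.5, 48.5 and 50.6 FPKM (adjusted p 0.0461 and 0.015 against control). Its siMENA call did not hold with any 1 control library, any 1 siMENA library or siMENA11a replicate 1 left out (0.0609 to 0.166; 0.0365 to 0.166 over all alternatives), nor with the block on replicate number (0.0534), and its siMENA11a call did not hold with control replicate 3 left out (0.0637; 0.00821 to 0.0637 over all alternatives). Median-ratio scaling and quantile normalization each removed the siMENA call of IFNGR2 as well. IFNAR1, a chain of the type I receptor, had means of 9.33, 8.42 and 12.3 FPKM, and its siMENA11a call (adjusted p 0.0393) was lost without any 1 control library, siMENA replicate 2 or siMENA11a replicate 1 or 2 (0.0514 to 0.125; 0.0179 to 0.125 over all alternatives). It was higher with siMENA11a than with siMENA by 0.49 ± 0.10 (adjusted p 0.0054). Among 5 feedback inhibitors tested, SOCS3 and SOCS1, which block the receptor kinases, went in opposite directions with siMENA. SOCS3 measured 12.04, 13.2 and 10.4 FPKM in control, 6.22, 7.95 and 6.93 FPKM with siMENA and 13.9, 16.3 and 15.8 FPKM with siMENA11a, and SOCS1 held 4.84, 4.797 and 3.72, 6.67, 8.597 and 5.61 and 4.25, 3.71 and 3.52 FPKM. With siMENA, SOCS3 was below control in every library by -0.68 ± 0.10 (adjusted p 0.00255), and SOCS1 was above it by 0.54 ± 0.14 (adjusted p 0.0237, lost without control replicate 3 or siMENA replicate 1 or 2, 0.0642 to 0.0879; 0.00671 to 0.0879 over all alternatives). Between siMENA11a and siMENA the log2 differences were 1.02 for SOCS3 and -0.71 for SOCS1 (adjusted p 8.75e-05 and 0.0032). SOCS3 and PTPN2 were called higher with siMENA11a against control (0.34 and 0.15, adjusted p 0.0449 and 0.0465). The SOCS3 call was lost without control replicate 1 or 3, siMENA replicate 3 or siMENA11a replicate 2 or 3 (0.0615 to 0.152; 0.0144 to 0.152 over all alternatives), and that of PTPN2 without any 1 library but siMENA11a replicate 2 (0.0559 to 0.132; 0.018 to 0.132 over all alternatives).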

How the data were processed

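Total RNA of the 9 libraries was depleted of ribosomal RNA and sequenced as stranded paired reads, per the labels' protocols. The authors deposited 1 table of FPKM values. The submitters' processing notes name the build hg19, while no aligner, quantification software or gene annotation is given in the sources used here. FPKM is scaled to each library's total, so a change in a few abundant RNAs shifts all values. The members and the lists of pathway and marker genes were chosen with earlier results of these data known.

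Of the deposited FPKM values, 11524 (7.91%) were whole numbers taken to have lost their decimal point, and were divided by 1000. They stood far above the rest of their gene or came from 237 genes with no decimal value. In those genes the division is an assumption, since there was nothing to compare with. No counts could be recovered. Genes with a missing value in any library (1286) or a mean under 0.5 FPKM were left out, and 13273 were tested as log2(FPKM + 1) with limma 3.58.1 in R 4.3.3, in 1 fit of all 9 libraries with group as the only term, a mean-variance trend and 6 residual degrees of freedom. P-values were adjusted over all genes within each comparison (Benjamini-Hochberg), with a threshold of 0.05. They measure the spread between libraries that the labels call biological replicates. The procedure was tested before use on simulated data in which the libraries varied independently. Those data held no shift shared by same-numbered libraries, such as the one seen here in the libraries numbered 2, so that setting was not covered. Alternatives were another pseudocount (0.1), filter (none, or 2 FPKM) and scaling (median-ratio, quantile), missing values read as 0, genes with a divided value left out, only the 2 groups compared, a block on replicate number, each library left out in turn and, added after the data were seen, the 3 libraries numbered 2 left out.

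Replicate numbers come from the titles. Deviations from the group means correlated between same-numbered siMENA and control libraries at 0.124, 0.378 and 0.196, each over 0.1. By that rule they count as paired, although the labels do not say what a number marks. The main calls and counts come from the fit without the block. P-values with the block are given beside members of that comparison where they change the call. A like correlation of 0.113 was found between control replicate 1 and siMENA replicate 3, whose numbers differ. Values in all libraries are printed for up to 3 called members of each role with the largest change and for 1 member per role that was not called in any comparison (the most abundant). Of the pathway lists, up to 4 called genes per comparison with the largest change are named. A gene of the pathway lists is not reported here and was left out of their counts.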

Additional observations from a re-analysis of the deposited data

How the results depend on the processing

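With siMENA against control, 20 members were higher. The count was 28 with the replicate block, 9 (of 19 members left) when genes with a divided value were left out, 12 to 22 when each library was left out in turn, and 19 or 20 otherwise. The count of lower members, 0, became 1 with the replicate block and 1 without the 3 libraries numbered 2 (IFI6 in both), and was 0 to 1 when each library was left out. With siMENA11a against control, 20 were higher: 9 (of 19) without genes with a divided value, 27 with the replicate block, 13 to 21 with each library left out, and 17 to 23 otherwise. The count of lower members was 0 in every alternative. With siMENA11a against siMENA, 7 were higher: 11 with the replicate block, 4 (of 19) without genes with a divided value, and 7 to 9 with each library left out. For the 4 lower members the counts were 11 with the replicate block, 2 with quantile normalization, 2 (of 19) without genes with a divided value, and 2 to 10 with each library left out. Leaving out genes with a divided value leaves 19 members to count, and the cause of the other moves was not tested. In both comparisons with siMENA11a the same-numbered libraries did not all correlate over 0.1 over all genes (the lowest were -0.0302 against control and 0.0203 against siMENA). Over the members alone they did, at 0.169 to 0.87 and 0.315 to 0.713, with the libraries numbered 2 the closest. Replicates 1 and 3, whose numbers differ, also correlated over the members. Their values were 0.598 and 0.515 for siMENA11a and control, and 0.49 and 0.237 for siMENA11a and siMENA. These correlations therefore do not show pairing by number. The labels do not say what a number marks, so whether these libraries are paired is not known. With the replicate block, 7 further members were called higher with siMENA11a against control: UBA7 (adjusted p 0.00937), HERC5 (0.00356), RSAD2 (0.00263), IFITM2 (0.0355), BST2 (0.00991), IFI44 (0.00116) and IFI44L (0.0152). The call of IFI44L lends no support, since that gene passed the filter only through the siRNA groups. Between siMENA11a and siMENA the block added ISG15 (0.0478), IFITM2 (0.00275), BST2 (0.0436) and EPSTI1 (0.011) as higher and IFIT1 (0.0256), OAS3 (0.0122), OASL (0.0423), HERC5 (0.000483), MX1 (0.0296), ISG20 (0.00396) and IFITM3 (0.028) as lower. Median-ratio and quantile scaling moved the median of all genes by under 0.05 on the log2 scale. No called member changed sign. With no counts in the table, absolute depth is unknown, and no limit of detection can be given for genes at low FPKM such as MX2, IFI44L and IFNB1.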

Other observations

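Genes known to be induced mainly by interferon gamma were read as a separate list. Of 12 listed, 11 were in the table and 8 were tested. With siMENA 1 rose (GBP4) and 1 fell (GBP2), with siMENA11a both rose, and the medians were 0.13 and 0.23 on the log2 scale. Among all genes tested, 10.3% rose and 8.24% fell with siMENA, so the siMENA counts lay near those shares. With siMENA11a 8.16% of all genes rose, and the medians over all genes were 0.04 and -0.01. GBP4, a guanylate-binding protein, measured 12.2, 12.1 and 11.5 FPKM in control replicates 1 to 3, 19.6, 21.5 and 18.4 FPKM with siMENA and 18, 18.2 and 16.2 FPKM with siMENA11a (limma adjusted p 0.00024 and 0.00122 against control). GBP2, of the same family, held 19.4, 15.9 and 17.3 FPKM in control, 12.5, 14.5 and 13.3 FPKM with siMENA and 23.4, 19 and 24.5 FPKM with siMENA11a. GBP4 was above control without overlap in both siRNA groups, and GBP2 was below control with siMENA. The GBP2 calls against control (adjusted p 0.037 and 0.0495) were lost, with siMENA, without control replicate 1 or 3, siMENA replicate 1 or 3 or siMENA11a replicate 1 (0.0507 to 0.126; 0.0121 to 0.126 over all alternatives) and, with siMENA11a, without control replicate 2 or 3, any 1 siMENA library or siMENA11a replicate 1 or 3 (0.0566 to 0.15; 0.0119 to 0.15 over all alternatives). Its difference between siMENA11a and siMENA was 0.68 ± 0.10 (adjusted p 0.000769). The chemokine CXCL10, often used to read out this response, was at 0.183 FPKM or less in the libraries with a value.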
